A study of Mus musculus with 6 samples.

Results

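The MYC, MAX and MXD network was followed through its 8 genes, Myc, Max, Mxd1, Mxd3, Mxd4, Mxi1, Mnt and Mlx, out of 22548 gene symbols measured in mouse eosinophils. The members were taken from the tables by gene name. They were found in every deposited table as 14 transcripts, each gene lies at 1 locus, and all 8 had at least 1 FPKM in every library, so none was lost to the filter on low values. FPKM, the deposited unit, is the number of fragments scaled by transcript length and library size, a level per length that can be compared between genes.

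The proteins of this family bind each other through a helix-loop-helix and leucine zipper. MYC binds DNA together with MAX at the E-box and activates genes of growth, metabolism and ribosome production, while MXD1, MXD3, MXD4, MXI1 and MNT compete for MAX and bring the SIN3 and histone deacetylase corepressor to the same sites. MLX is a MAX-like protein that pairs with some of the MXD proteins and with the glucose-sensing factors MondoA and ChREBP. In blood cells, MYC is known for its high level in dividing progenitors, and MXD1, formerly MAD1, for its high level in maturing granulocytes.

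RNA sequencing covered 6 groups of 1 library each. The donors were wild-type mice of the BALB/c strain aged 4 to 8 weeks, whose low-density marrow cells were kept in culture for 14 days. The medium held SCF and FLT3-ligand, each at 100 ng/ml, up to day 4, and after that it held IL-5 at 10 ng/ml. The cells were then left untreated or given IL-4 or IL-33 at 10 ng/ml, and RNA was taken at 1 h and at 4 h. All groups therefore shared the culture with IL-5, and a marrow culture can hold other blood cells. IL-4 signals through STAT6, and IL-33 signals through ST2, MyD88 and NF-kB. With 1 library in each group no difference has a replicate check, so no p-value was computed and all comparisons describe these libraries.

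The label of the cells was checked against markers. All 12 eosinophil genes had at least 1 FPKM in each library, with a summed level of 60105 to 74814 FPKM. The most abundant marker was Prg2, the major basic protein of the eosinophil granule, at 41838 to 52228 FPKM. Neutrophil genes were also present, with a summed level of 6127 to 8572 FPKM over 14 genes, and monocyte and macrophage genes summed to 1459 to 2455 FPKM over 14 genes, with Marco listed at 0 in every library. Relative to the untreated library in the same table, sequencing depth was 0.980 for IL-4 at 1 h, 1.23 for IL-4 at 4 h, 1.15 for IL-33 at 1 h and 1.88 for IL-33 at 4 h.

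The promoters of the network's own genes are shown first, because the E-box that MYC and MAX bind, CACGTG, stands in some of them. RefSeq windows of 300 bases on build GRCm38.p6, from 250 bases before to 50 bases after a gene's start, were found for 7 of the 8 genes. Myc is the gene without a matched window. The E-box, which reads the same on both strands, was found in the windows of 4 of these 7 genes, Max, Mxd4, Mnt and Mlx, and in no window of Mxd1, Mxd3 or Mxi1. Of all 32851 RefSeq windows of this length, 7.15% hold it, and of symbols with at least 1 FPKM in a library, 12.2% have it in a window. Below, the 4 windows with the E-box and that of Mxd1, the gene that changed most, are printed from 250 bases before the start through the first 30 bases from the start, 5′ to 3′ on the gene's strand, with the E-box in capitals. The E-box begins at position -3 from the start in Max (minus strand, chr12:76962219-76962498), at -219 in Mxd4 (minus strand, chr5:34187681-34187960), at -123 in Mnt (plus strand, chr11:74830674-74830953) and at -40 in Mlx (plus strand, chr11:101087040-101087319). Positions count from the start that each RefSeq window uses. For Max, the GENCODE M21 transcripts matched to its deposited ones start at 76962201 and 76962185 on GRCm38, downstream of the printed stretch. The deposited starts are on mm9 and were not placed on GRCm38, so where this E-box lies from them was not tested. The Mxd1 window (minus strand, chr6:86669130-86669409) holds none.
Max: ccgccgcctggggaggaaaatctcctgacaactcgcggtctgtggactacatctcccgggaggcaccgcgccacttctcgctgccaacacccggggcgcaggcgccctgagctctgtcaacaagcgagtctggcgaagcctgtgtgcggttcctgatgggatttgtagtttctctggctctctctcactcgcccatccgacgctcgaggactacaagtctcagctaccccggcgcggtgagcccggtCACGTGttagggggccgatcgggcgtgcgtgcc
Mxd4: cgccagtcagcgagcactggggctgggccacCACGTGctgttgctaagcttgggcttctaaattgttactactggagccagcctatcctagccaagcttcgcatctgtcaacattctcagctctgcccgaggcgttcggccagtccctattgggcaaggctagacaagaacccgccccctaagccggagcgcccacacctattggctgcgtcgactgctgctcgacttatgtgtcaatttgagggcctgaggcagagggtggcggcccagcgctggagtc
Mnt: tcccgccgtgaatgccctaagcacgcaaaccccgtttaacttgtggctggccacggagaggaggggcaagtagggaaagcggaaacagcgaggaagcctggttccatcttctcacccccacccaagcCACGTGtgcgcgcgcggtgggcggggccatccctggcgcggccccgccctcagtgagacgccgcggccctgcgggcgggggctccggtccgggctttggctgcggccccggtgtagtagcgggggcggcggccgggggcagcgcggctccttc
Mlx: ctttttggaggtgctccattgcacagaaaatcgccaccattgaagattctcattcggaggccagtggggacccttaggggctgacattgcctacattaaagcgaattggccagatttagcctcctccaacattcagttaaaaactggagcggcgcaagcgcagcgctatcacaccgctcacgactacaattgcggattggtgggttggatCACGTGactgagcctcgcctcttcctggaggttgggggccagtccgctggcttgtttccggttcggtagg
Mxd1: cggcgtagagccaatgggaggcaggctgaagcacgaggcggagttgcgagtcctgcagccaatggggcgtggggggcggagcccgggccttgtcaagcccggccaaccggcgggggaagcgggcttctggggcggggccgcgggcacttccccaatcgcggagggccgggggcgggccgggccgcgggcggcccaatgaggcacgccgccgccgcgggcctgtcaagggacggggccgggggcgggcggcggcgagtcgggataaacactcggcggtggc

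Changes were expressed as log2 of (FPKM + 1) in the treated library over that in the untreated library of its table, a scale that understates the change of low genes, and a gene was called higher or lower when this value reached 1 in size. By this rule 1 member was higher with IL-4 at 4 h (Myc), 1 with IL-33 at 1 h (Mxd1) and 1 with IL-33 at 4 h (Myc), and no member was lower in any comparison. With IL-4 at 1 h, 0 of 8 members were called, against a background over all genes of 0.47% higher and 0.358% lower. For IL-4 at 4 h the background was 0.646% higher and 0.351% lower, for IL-33 at 1 h 2.36% higher and 0.669% lower, and for IL-33 at 4 h 4.15% higher and 1.38% lower. In untreated cells at 4 h against 1 h, 0.879% of genes were higher and 1.56% lower, and 0 of 8 members were called. These shares are also the background for the counts of called genes in each list and marker set below. In these bulk samples, fewer cells of a type and less RNA per cell cannot be told apart.

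**Figure D1:**
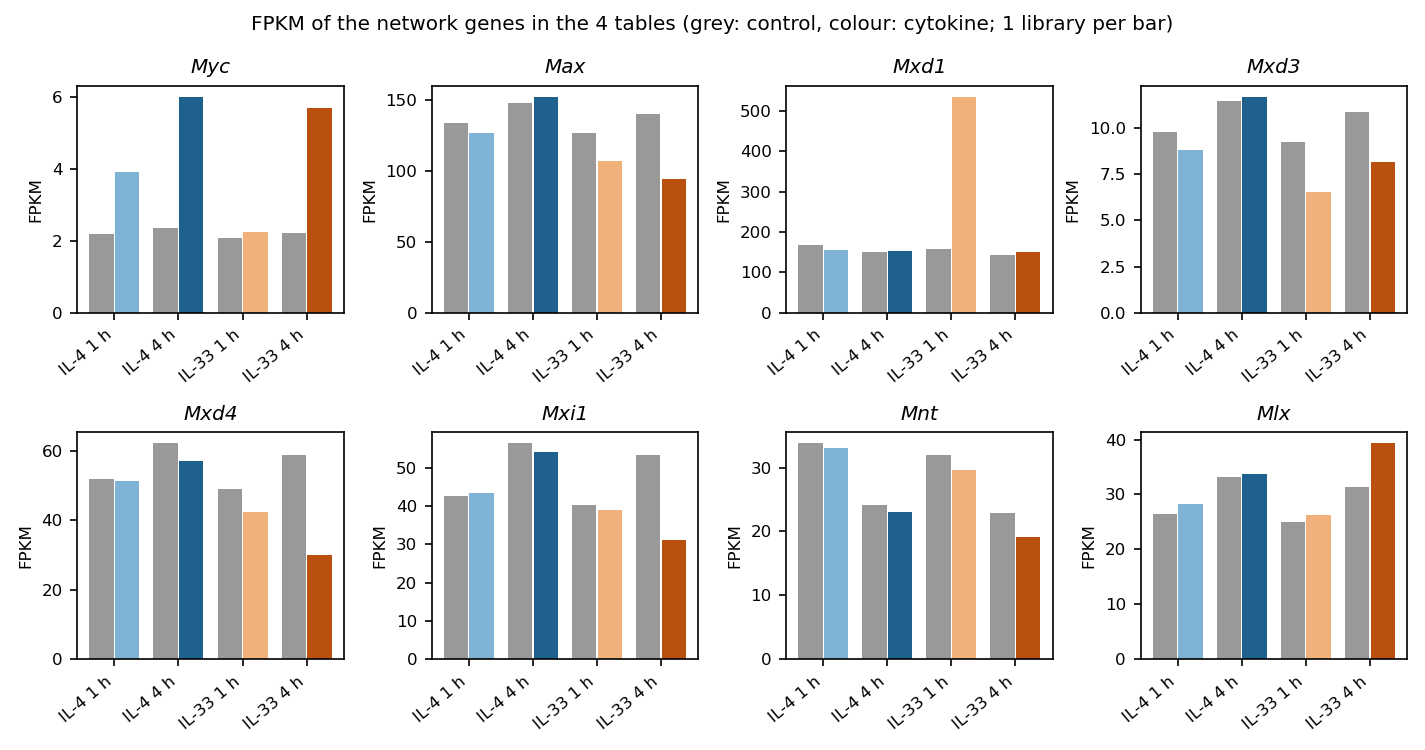
FPKM of each member (y axis, linear, starting at 0) in the untreated library (grey) and the cytokine library (colour) of each of the 4 tables (x axis). Each untreated library appears in both tables of its time, so the grey bars of a time show 1 library scaled in 2 ways. Mxd1 stands out with IL-33 at 1 h at 536 FPKM, and Myc is highest with IL-4 at 4 h at 6.001 FPKM.

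Myc, the activator of the network (RefSeq NM_001177352 and NM_001177353; mm9 chr15:61816896-61821916), was the lowest of the 8 genes in all 6 libraries. In the IL-4 tables Myc measured 2.18 FPKM in untreated cells and 3.90 FPKM with IL-4 at 1 h, and 2.34 FPKM in untreated cells and 6.001 FPKM with IL-4 at 4 h. In the IL-33 tables it measured 2.06 FPKM untreated and 2.24 FPKM with IL-33 at 1 h, and 2.22 FPKM untreated and 5.69 FPKM with IL-33 at 4 h. Myc was thus near its untreated level 1 h after IL-33, at an intermediate level 1 h after IL-4, and at similar levels 4 h after either cytokine. The tables were scaled separately, and the same untreated library reads 0.945 or 0.947 times as high in the IL-33 tables, which touches every level set across tables.

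With IL-4, Myc rose at 4 h by 1.07 on the log2 scale. The ratio of its FPKM was 2.56, with a 95% counting interval of 1.97 to 3.38 from about 73 and 243 reads. At 1 h the log2 change was 0.62, short of the rule, and the FPKM ratio was 1.79 with an interval of 1.38 to 2.33 from about 91 and 165 reads. Among the genes compared, 98.6% changed less than Myc in either direction with IL-4 at 1 h, and 99.1% with IL-4 at 4 h.

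With IL-33, Myc rose at 4 h by 1.06 on the log2 scale, with an FPKM ratio of 2.57 and an interval of 1.99 to 3.36 from about 72 and 345 reads. In this library, 95.02% of the genes compared changed less than Myc. At 1 h the log2 change was 0.08 and the interval of the ratio, 0.819 to 1.44, included 1. Read numbers were estimated from the size of 1 read in the low FPKM values, and the intervals (exact, Clopper-Pearson) cover counting error only. The untreated libraries of 4 h and 1 h differed in Myc by 0.07 on the log2 scale.

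The authors' deposited table of regulated genes held 4 members and 1593 genes in all. The authors' deposited table gave Myc log2 fold changes of 0.84 at 1 h and 1.36 at 4 h with IL-4, both marked as significant. For Myc with IL-33, the authors' deposited table gave 0 at both times, with no mark. All unmarked entries of members there are 0, also that of Max with IL-33 at 4 h, where the FPKM ratio was 0.671. A 0 without a mark is therefore not read here as a measured lack of change. In it, Mxd1 was marked only with IL-33 at 1 h, with 1.76, and Mxi1 was marked with -0.78 with IL-33 at 4 h. It also marked Mxi1 at 1 h, with 0.03 for IL-4 and -0.05 for IL-33, and Max for IL-4 at 4 h, with 0.04.

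The GENCODE M21 counterparts of the 2 Myc transcripts start 231 bases apart on GRCm38 and code for proteins of 454 and 453 residues. The longer, NM_001177352, measured 1.54 FPKM untreated and 5.38 FPKM with IL-4 at 4 h, and NM_001177353 measured 0.802 and 0.622 FPKM in the same libraries. With IL-33 at 4 h, NM_001177352 measured 1.46 FPKM untreated and 3.46 FPKM treated, and NM_001177353 measured 0.760 and 2.23 FPKM. Thus NM_001177352 made up 89.6% of Myc FPKM with IL-4 at 4 h and 60.8% with IL-33 at 4 h, against 65.7% in the untreated library. The transcripts of Myc, and likewise those of Max, Mxi1 and Mlx, overlap, so the deposited division of reads between them is an estimate and each value of a single transcript is uncertain. On NM_001177352 alone the change with IL-33 at 4 h was 0.86, which does not reach the rule, while that with IL-4 at 4 h was 1.33.

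Max (mm9 chr12:78038256-78063235), the partner that MYC and the MXD proteins share, was 1 of the 2 most abundant members in every library. Its level was 134 FPKM untreated and 127 FPKM with IL-4 at 1 h, and 148 FPKM untreated and 153 FPKM with IL-4 at 4 h. In the IL-33 tables it was 127 FPKM untreated and 107 FPKM at 1 h, and 140 FPKM untreated and 94.1 FPKM at 4 h, the lowest of the 6 libraries. The log2 changes were -0.08, 0.04, -0.25 and -0.57 in that order, none of which reached the rule.

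At 4 h with IL-33 the ratio of Max FPKM was 0.671, with a counting interval of 0.644 to 0.699. By the deposited estimates, NM_001146176 was there at 95.9 FPKM untreated and 65.4 FPKM treated and NM_008558, which codes for 160 residues against 151, at 44.3 and 28.7 FPKM. Untreated cells differed by 0.14 between 4 h and 1 h.

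Mxd1 (NM_010751; mm9 chr6:86597039-86619153), the MXD repressor of maturing myeloid cells, was the most abundant member in 5 of the 6 libraries, the exception being IL-4 at 4 h, where Max was at 153 FPKM and Mxd1 at 152 FPKM. In the IL-33 tables Mxd1 measured 158 FPKM untreated and 536 FPKM with IL-33 at 1 h, and 143 FPKM untreated and 149 FPKM at 4 h. In the IL-4 tables it measured 167 FPKM untreated and 156 FPKM at 1 h, and 150 FPKM untreated and 152 FPKM at 4 h. A single library, that of IL-33 at 1 h, stood apart from the others, which lay between 143 and 167 FPKM.

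Mxd1 rose with IL-33 at 1 h by 1.76 on the log2 scale. The FPKM ratio was 3.40, with a counting interval of 3.34 to 3.46 from about 15124 and 59296 reads, and 98.5% of the genes compared changed less. Its log2 change was 0.07 with IL-33 at 4 h, and -0.10 and 0.02 with IL-4 at 1 h and 4 h. The untreated libraries differed by -0.15.

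Mxd4 (NM_010753; mm9 chr5:34519229-34530359) and Mxi1 (mm9 chr19:53384996-53450300), both repressors that pair with MAX, had the lowest levels of the 6 libraries with IL-33 at 4 h. Mxd4 measured 59.0 FPKM untreated and 30.1 FPKM treated in that table, a log2 change of -0.95 and an FPKM ratio of 0.511 with an interval of 0.487 to 0.536. Mxi1 measured 53.4 FPKM untreated and 31.2 FPKM treated, a log2 change of -0.76 and a ratio of 0.584 with an interval of 0.548 to 0.623. Neither reached the rule, though 93.8% and 90.5% of the genes compared changed less than Mxd4 and Mxi1.

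In the other 3 tables both stood nearer to their untreated levels. Mxd4 measured 49.2 FPKM untreated and 42.4 FPKM with IL-33 at 1 h, 52.1 and 51.4 FPKM in the IL-4 table of 1 h, and 62.3 and 57.2 FPKM in that of 4 h. Mxi1 measured 40.3 FPKM untreated and 39.0 FPKM with IL-33 at 1 h, 42.6 and 43.5 FPKM in the IL-4 table of 1 h, and 56.4 and 54.1 FPKM in that of 4 h. Untreated cells of 4 h against 1 h differed by 0.25 for Mxd4 and by 0.40 for Mxi1.

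Mxi1 has 3 deposited transcripts. Their GENCODE M21 counterparts begin up to 19890 bases apart on GRCm38 and code for 295 (NM_001008542), 228 (NM_010847) and 192 (NM_001008543) residues. The most abundant, NM_010847, measured 28.4 FPKM untreated and 13.5 FPKM with IL-33 at 4 h, and on it alone the log2 change was -1.02, past the rule. NM_001008542 measured 17.97 and 12.6 FPKM in the same libraries. The shortest protein's transcript, NM_001008543, had lower estimated levels at 1 h with both cytokines, with 6.35 FPKM untreated and 1.64 FPKM with IL-4, and 6.004 FPKM untreated and 0.884 FPKM with IL-33. Both of those values were set against the same untreated library, and NM_001008543 measured 7.48 and 7.84 FPKM in the IL-4 table of 4 h. The division of reads among the 3 is uncertain, and summed Mxi1 was at 42.6 and 43.5 FPKM with IL-4 and 40.3 and 39.0 FPKM with IL-33 at 1 h.

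**Figure D2:**
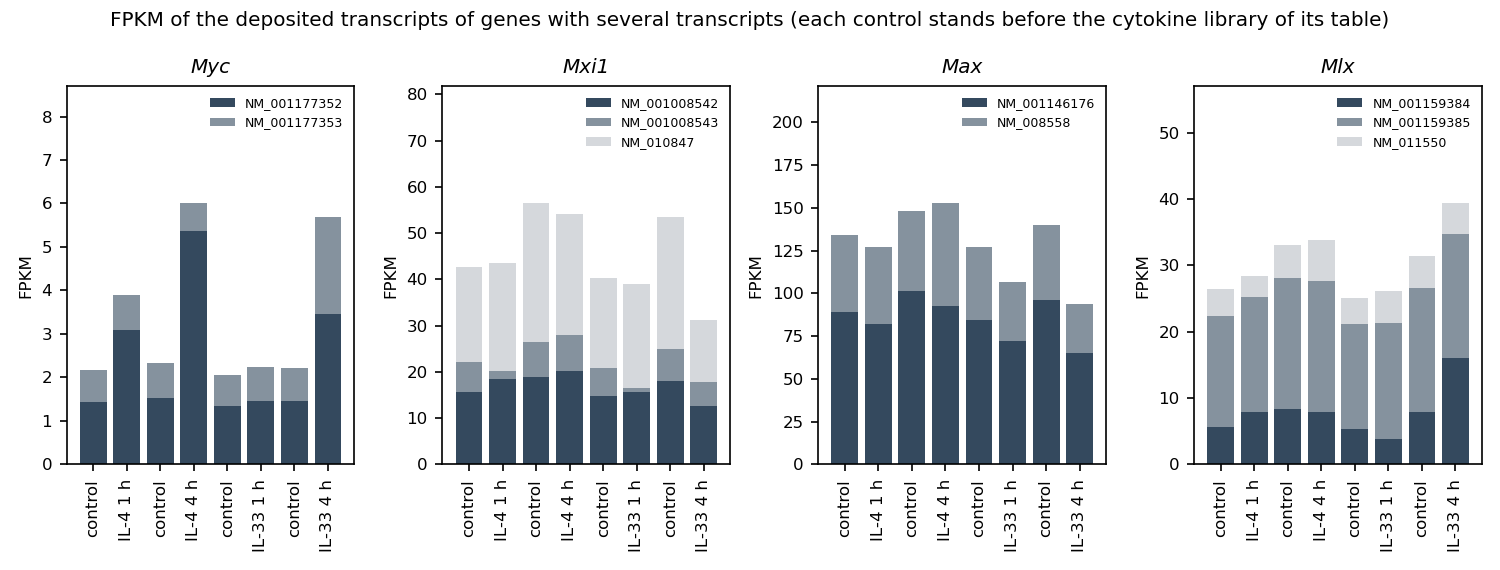
Stacked FPKM (y axis, linear, starting at 0) of the deposited transcripts of the 4 members that have several, in each untreated and cytokine library (x axis, in pairs by table). The share of NM_001177352 in Myc is 89.6% with IL-4 at 4 h and 60.8% with IL-33 at 4 h, and NM_001008543 of Mxi1 is estimated at 1.64 and 0.884 FPKM in the cytokine libraries of 1 h.

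Mxd3 (NM_016662; mm9 chr13:55423416-55431091), a repressor known from cells in S phase, ranked 7th in every library. It measured 9.26 FPKM untreated and 6.54 FPKM with IL-33 at 1 h, 10.9 and 8.17 FPKM in the IL-33 table of 4 h, 9.80 and 8.85 FPKM in the IL-4 table of 1 h, and 11.5 and 11.7 FPKM in that of 4 h. The log2 changes with IL-33 were -0.44 at 1 h, with an interval of the FPKM ratio of 0.585 to 0.852, and -0.38 at 4 h, with an interval of 0.628 to 0.896. Mnt (NM_010813; mm9 chr11:74644426-74659227), the MAX-binding repressor found in most cells, measured 22.8 FPKM untreated and 19.2 FPKM with IL-33 at 4 h, a log2 change of -0.24. Its largest difference was between untreated libraries, 33.8 FPKM at 1 h and 24.1 FPKM at 4 h, a log2 difference of -0.47. It measured 32.0 and 29.6 FPKM in the IL-33 table of 1 h, and its log2 changes with IL-4 were -0.03 at 1 h and -0.06 at 4 h.

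Mlx (mm9 chr11:100948604-100956715), the MAX-like partner of MondoA and ChREBP, had its highest level with IL-33 at 4 h. It measured 31.4 FPKM untreated and 39.3 FPKM treated there, a log2 change of 0.32 and a ratio of 1.25 with an interval of 1.16 to 1.36. It measured 25.0 and 26.2 FPKM in the IL-33 table of 1 h, 26.5 and 28.3 FPKM in the IL-4 table of 1 h, and 33.1 and 33.8 FPKM in that of 4 h. Of its 3 overlapping transcripts, whose division is equally uncertain, NM_001159384 measured 7.86 FPKM untreated and 16.0 FPKM with IL-33 at 4 h, while NM_001159385 was at 18.8 FPKM in both. Untreated cells differed in Mlx by 0.31 between 4 h and 1 h, a value close to that with IL-33 at 4 h.

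**Figure D3:**
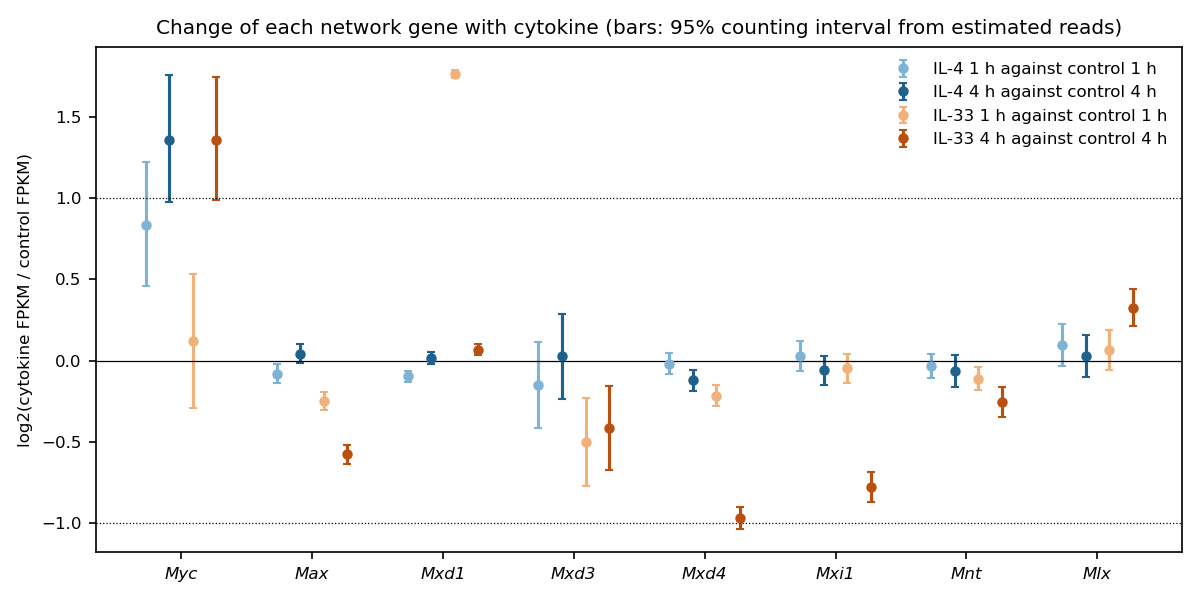
Log2 ratio of cytokine to untreated FPKM without a pseudocount (y axis) for the 8 members (x axis) in the 4 cytokine comparisons (colours), with 95% counting intervals from estimated reads as bars and dotted lines at 1 and -1. Mxd1 with IL-33 at 1 h and Myc at 4 h lie above the upper line, and Mxd4, Mxi1 and Max with IL-33 at 4 h lie between the lower line and 0.

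Over the 8 members the median log2 change was -0.03 with IL-4 at 1 h, 0.02 with IL-4 at 4 h, -0.08 with IL-33 at 1 h and -0.31 with IL-33 at 4 h. Over all genes compared, the medians were -0.02, 0.02, -0.01 and -0.03. At 4 h against 1 h in untreated cells, the members' median was 0.17 and that of all genes 0.10. For IL-33 at 4 h, 5 of 8 members were below 0, as were 53.5% of all genes. Apart from Myc, the largest change of a member with IL-4 was -0.13, that of Mxd3 at 1 h, whereas the untreated libraries differed by up to 0.47 in size (Mnt).

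Each cytokine was set against the other by the difference of its log2 changes, IL-33 minus IL-4. Both changes of a time share the untreated library, so they are given side by side. At 1 h, Mxd1 was the called member, with 1.76 for IL-33, -0.10 for IL-4 and a difference of 1.85, in a background of 2.04% of genes higher and 0.467% lower. Myc at 1 h had 0.08 for IL-33 and 0.62 for IL-4, a difference of -0.54. At 4 h no member was called, against a background of 3.06% higher and 1.03% lower, and Myc had 1.06 for IL-33 and 1.07 for IL-4. These Myc values are of summed transcripts, and on its most abundant transcript alone they were 0.86 and 1.33. The differences at 4 h were -0.83 for Mxd4, -0.70 for Mxi1, -0.61 for Max, -0.40 for Mxd3 and 0.29 for Mlx. The value of Mlx rests on how its transcripts are summed, since its most abundant transcript was at 18.8 FPKM with and without IL-33.

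Ratios within a library do not depend on how its table was scaled, and they describe RNA and not protein. Myc was 1.62% of Max in untreated cells of 1 h, 3.07% with IL-4 and 2.10% with IL-33 at that time. At 4 h it was 1.58% of Max untreated, 3.93% with IL-4 and 6.05% with IL-33. The IL-33 library of 4 h held the highest Myc to Max ratio, with Myc at 5.69 FPKM and Max at 94.1 FPKM. That order turned when only the most abundant transcript of each gene was taken, with 5.82% for IL-4 and 5.30% for IL-33 at 4 h.

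The summed FPKM of Mxd1, Mxd3, Mxd4, Mxi1 and Mnt was 2.27 times that of Max in untreated cells of 1 h, 2.31 times with IL-4 and 6.11 times with IL-33. At 4 h it was 2.06 times untreated, 1.96 times with IL-4 and 2.53 times with IL-33. Mxd1 made up 54.7% of that sum in untreated cells and 82.0% with IL-33 at 1 h, and 49.4% and 62.8% at 4 h. Without Mxd1, the sum measured 146 FPKM untreated and 88.6 FPKM with IL-33 at 4 h. As a percentage of the repressors' sum, Myc measured 0.715% untreated, 1.33% with IL-4 and 0.343% with IL-33 at 1 h, and 0.768%, 2.01% and 2.39% at 4 h. The order of the cytokines at 4 h turned here too with the most abundant transcripts alone, at 1.99% with IL-4 and 1.57% with IL-33.

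**Figure D4:**
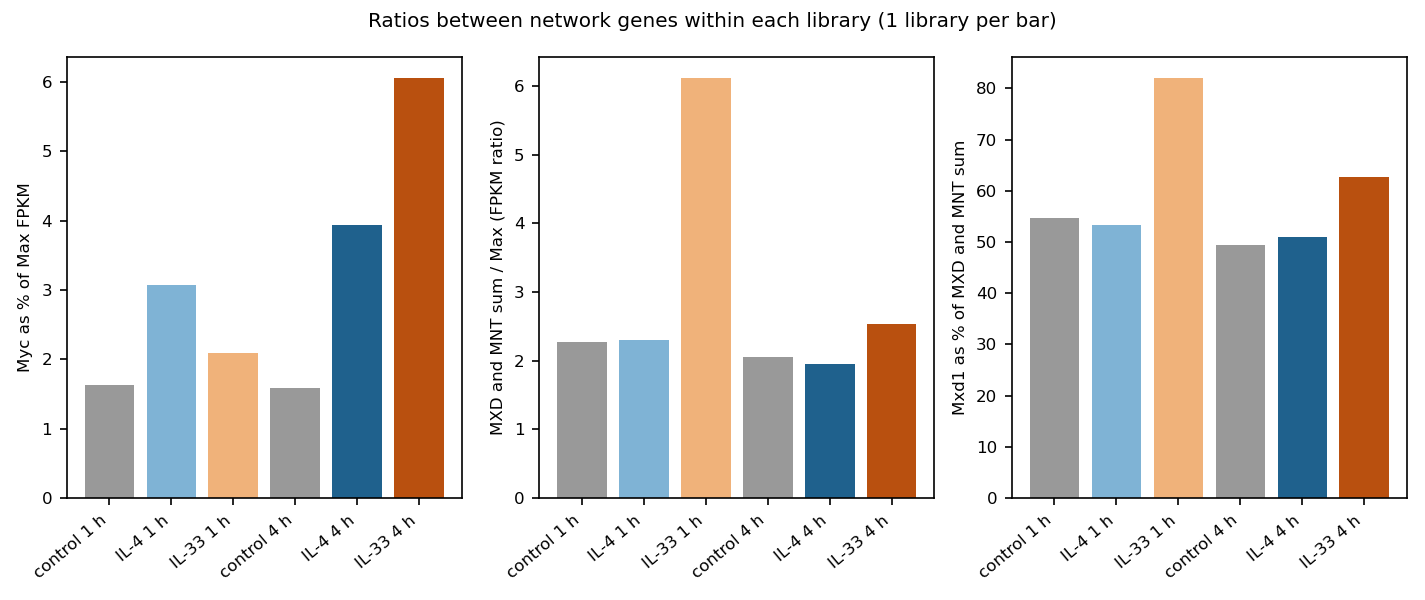
Myc as a percentage of Max, the summed MXD and MNT FPKM over that of Max, and Mxd1 as a percentage of that sum (y axes, linear, starting at 0) in the 6 libraries (x axis, 1 library per bar). The Myc share, from summed transcripts, is highest with IL-33 at 4 h (6.05%; with the most abundant transcripts alone, 5.30% against 5.82% with IL-4), and the repressor sum with IL-33 at 1 h (6.11 times Max, 82.0% of it Mxd1).

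Among other helix-loop-helix zipper genes of the wider network, MYC's relatives Mycn and Mycl1, and Mlxipl, which codes for ChREBP, were under 1 FPKM in every library. Of 7 others compared, 0 were called in 3 comparisons, and 1 was higher with IL-33 at 4 h: Mitf, the factor of mast cells and melanocytes, at 4.76 FPKM untreated and 10.99 FPKM treated (log2 1.06). The medians of these 7 with IL-33 were -0.02 at 1 h and -0.07 at 4 h. Usf1, another E-box binding factor, measured 37.98 FPKM untreated and 23.9 FPKM with IL-33 at 1 h (log2 -0.65).

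The corepressor that the MXD proteins recruit, SIN3 with its histone deacetylases, had 0 of 17 genes called with either cytokine at either time, with medians of 0.06 and 0.04 with IL-33 at 1 h and 4 h. The largest value was that of Hdac1, a histone deacetylase, with 44.8 FPKM untreated and 87.3 FPKM with IL-33 at 4 h (log2 0.95). MYC coactivators, such as the TRRAP and TIP60 acetyltransferase subunits and the elongation kinase Cdk9, likewise had 0 of 16 called. Cdk9 measured 61.2 FPKM untreated and 44.1 FPKM with IL-33 at 1 h (log2 -0.46).

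Among genes that act on the MYC protein's stability, those called were PIM kinases, which are known to phosphorylate MYC and stabilise it. Of 15 genes, 0 were called with IL-4 at 1 h and 1 was higher with IL-4 at 4 h, Pim2, at 4.58 FPKM untreated and 11.2 FPKM treated (log2 1.13). With IL-33 at 1 h, 2 were higher, Pim1 at 64.7 and 324 FPKM (log2 2.30) and Pim2 at 3.19 and 14.0 FPKM (log2 1.84). At 4 h, 1 was higher with IL-33, Pim2, at 4.33 FPKM untreated and 165 FPKM treated (log2 4.96), against 4.15% of all genes. Pim1 was then at 59.3 FPKM untreated and 117 FPKM treated (log2 0.97), just short of the rule. The medians of the 15 genes were 0.03 with IL-4 at 4 h and 0.05 with IL-33 at 4 h, near those of all genes.

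Known MYC targets of ribosome production had 0 of 30 genes called with IL-4 at 4 h or with IL-33 at either time, and 0 of 29 with IL-4 at 1 h. With IL-4 at 4 h their median was 0.20, against 0.02 for all genes, and 28 of 30 were above 0, against 56.6% of all genes. The untreated libraries also differed in this list: at 4 h against 1 h its median was 0.20 and 24 of 30 were above 0, against 0.10 and 64.6% for all genes. The largest with IL-4 at 4 h were Rrs1 and Ppan, both factors of large ribosomal subunit assembly, at 5.98 FPKM untreated and 9.61 FPKM treated (log2 0.60) and at 6.998 and 10.4 FPKM (log2 0.51). For IL-33 at 4 h, when Myc was at a similar level, the median was 0.06 and 18 of 30 were above 0. At 1 h the medians were -0.03 with IL-4 and -0.03 with IL-33.

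Known MYC targets of metabolism and growth were compared next. With IL-4 at 4 h, 0 of 38 were called, the median was 0.11 and 35 of 38 were above 0, against 0.02 and 56.6% for all genes. Srm, the spermidine synthase, was at 6.74 FPKM untreated and 10.8 FPKM treated (log2 0.61). For IL-33 at 4 h the median was -0.03, 19 of 38 were above 0, and 1 was higher, Nampt, the enzyme of NAD salvage, at 13.1 and 36.5 FPKM (log2 1.41). Over all genes the median was there -0.03, 46.5% were above 0 and 4.15% were higher. Between the untreated libraries the list's median was -0.03 and 18 of 38 were above 0, against 0.10 and 64.6% for all genes. With IL-33 at 1 h, 0 of 38 were called, Nampt had 0.97 and Hk2, a hexokinase, had -0.74. Hk2 also differed between untreated cells, 17.6 FPKM at 1 h and 35.7 FPKM at 4 h (log2 0.98).

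Of 8 genes known to be repressed by MYC, 0 were called with IL-4 at either time. With IL-33 at 1 h, 2 were higher, Gadd45a, a stress-response gene, at 124 FPKM untreated and 375 FPKM treated (log2 1.59), and Cdkn1a, the cell cycle inhibitor p21, at 50.3 and 104 FPKM (log2 1.03). At 4 h, IL-33 had 2 genes of this list past the rule. Cdkn2b, the inhibitor p15, was at 18.6 and 72.3 FPKM (log2 1.90), after a log2 change of 0.83 at 1 h. Cdkn1a fell just short at 4 h, at 33.9 and 68.1 FPKM (log2 0.986), and Gadd45a had 0.51. The other called gene was Fth1, the ferritin heavy chain, at 11304 and 39117 FPKM (log2 1.79), after 0.65 at 1 h. Fth1 has near-identical copies in the genome, so its value is uncertain. The medians of the 8 genes with IL-33 were 0.26 at 1 h and 0.02 at 4 h, with 4 of 8 below 0 at each time. The lowest values were -0.80 for Cdkn1b at 1 h and -0.77 for Ndrg1 at 4 h, genes named after their values were seen.

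Of 8 targets of MLX with its partners, 0 were called with IL-4 at 1 h or 4 h, and 0 with IL-33 at 1 h. With IL-33 at 4 h, 1 was higher, Arrdc4, an arrestin-like regulator of glucose uptake, at 11.2 FPKM untreated and 43.4 FPKM treated (log2 1.86), while the list's median was -0.18. Arrdc4 was also the 1 gene of this list called between the untreated libraries, at 27.8 FPKM at 1 h and 11.9 FPKM at 4 h (log2 -1.16). Its IL-33 library of 1 h measured 44.3 FPKM, against 26.3 FPKM untreated. Txnip, the best known MondoA target, measured 350 FPKM untreated and 418 FPKM with IL-33 at 4 h, a gene named after its value was seen.

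Cell cycle genes had 0 of 24 called with IL-4 at 1 h or 4 h. With IL-33, Cdk6, a kinase of G1 phase, was higher at 1 h (4.68 FPKM untreated and 11.9 FPKM treated, log2 1.18) and at 4 h (4.51 and 13.7 FPKM, log2 1.41). E2f2, a factor of S phase entry, was lower with IL-33 at 4 h, at 21.7 and 9.19 FPKM (log2 -1.15). The median of the 24 genes with IL-33 at 4 h was -0.33, and 22 of 24 were below 0, against 53.5% of all genes.

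**Figure D5:**
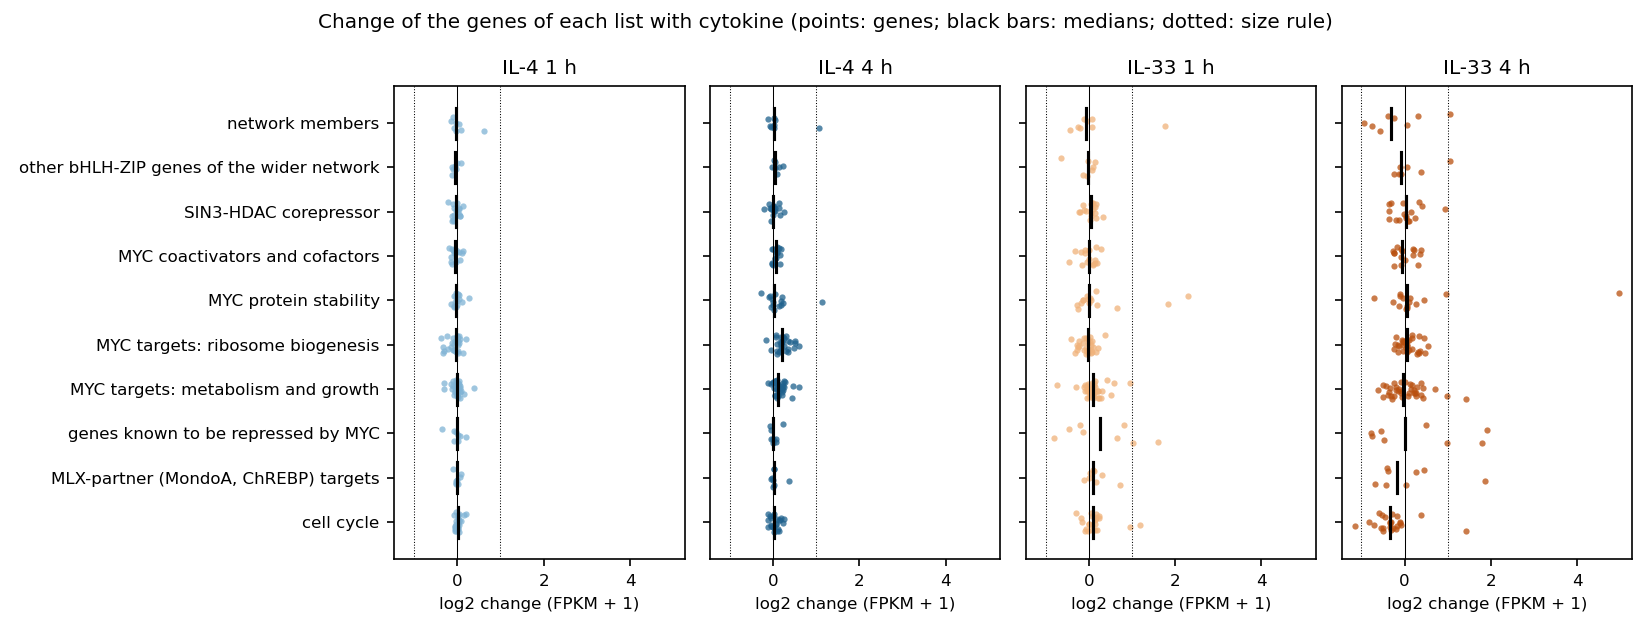
Log2 change (x axis, of FPKM + 1) of each gene of the network and of 9 related lists (rows) in the 4 cytokine comparisons (panels), with points for genes, black bars for medians, and dotted lines at 1 and -1. With IL-4 at 4 h, the ribosome list's median is 0.20 and no gene of it reaches 1, and with IL-33 at 4 h, Pim2 of the MYC stability list lies at 4.96.

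Markers of eosinophils and of other cells were read beside these results. With IL-33 at 4 h, where Myc rose and Max, Mxd4 and Mxi1 were at their lowest, the summed level of 14 neutrophil markers was 8121 FPKM untreated and 6127 FPKM treated, with a median log2 change of -0.47 and 13 of 14 below 0. The 12 eosinophil markers summed there to 64202 FPKM untreated and 60105 FPKM treated. Their median log2 change was -0.14, with 10 below 0 and 2 above. The 14 monocyte and macrophage markers summed to 1459 FPKM untreated and 2173 FPKM treated, and 3 of the 12 compared were higher, against 4.15% of all genes. These 12 had a median log2 change of 0.11, with 6 above 0 and 6 below 0. Mast cell and basophil markers summed to 366 and 396 FPKM, with Mcpt4 and Mcpt1 listed at 0 in both libraries. Lymphoid markers summed to 37.9 and 33.8 FPKM, erythroid and megakaryocyte markers to 255 and 219 FPKM, and progenitor markers to 178 and 186 FPKM. The part of these cells in the changes of the network was not tested. With IL-4 at 4 h, where Myc rose as well, the neutrophil sum was 8572 FPKM untreated and 8541 FPKM treated and the monocyte and macrophage sum was 1540 and 1536 FPKM, with 1 of 12 markers higher. With IL-33 at 1 h, where Mxd1 rose, these sums were 7029 and 7532 FPKM and 2304 and 2421 FPKM, with 1 of 11 monocyte and macrophage markers higher.

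Genes with a pattern most like that of Myc, and of Mxd1, the other member with the largest range, were sought by Euclidean distance over 5 log2 changes, the 4 cytokine comparisons and the untreated difference, among 7623 genes. Nearest to Myc were Il6st, Sdc4, C3, Dab2 and Tarm1, at distances of 0.517, 0.588, 0.686, 0.736 and 0.767. Il6st, the signalling receptor shared by cytokines of the IL-6 family, measured 2.63 FPKM untreated and 6.52 FPKM with IL-4 at 4 h, and 2.49 and 5.55 FPKM with IL-33 at 4 h. Sdc4, a cell-surface proteoglycan, measured 9.27 FPKM untreated and 26.1 FPKM with IL-4 at 4 h, and 8.78 and 24.6 FPKM with IL-33 at 4 h. Nearest to Mxd1 were Rab11fip1, Ifrd1, Tgif2, Prkab2 and Gadd45a, at distances of 0.175, 0.222, 0.336, 0.381 and 0.495. Rab11fip1, which acts in endosome recycling, measured 16.1 FPKM untreated and 57.2 FPKM with IL-33 at 1 h, and 15.5 and 15.0 FPKM in the table of 4 h. The 5 changes come from 6 libraries, and the cytokine changes of a time share their untreated library.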

How the data were processed

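RNA was sequenced from 6 libraries of cultured eosinophils, 1 per group, as single reads. TopHat 1.4.1, build mm9 and Cuffdiff 1.2.1 are named in the processing steps, per the submitters' processing notes. The authors deposited FPKM for 28702 RefSeq transcripts in 4 tables of 1 treated and 1 untreated library each, with log2 fold changes, p-values and q-values that compare 2 libraries and were not used as tests, and the list of regulated genes with log2 fold changes. The tables were scaled separately: the IL-33 tables held 0.945 (1 h) and 0.947 (4 h) times the IL-4 tables' values of the same untreated library, so changes were taken within a table, and the untreated libraries were compared in the IL-4 tables.

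FPKM was summed over the transcripts of a symbol. Changes are log2 with a pseudocount of 1 FPKM, among genes with at least 1 FPKM in either library, and a size of 1 was called. The design had assumed values per gene. Depth and reads per gene were estimated from the step of low FPKM values with transcript lengths of GENCODE M21 on GRCm38. Gene coordinates are those of the deposited tables (mm9), and promoter windows are on GRCm38. Transcript starts and protein lengths are those of the matched GENCODE M21 transcripts, on GRCm38. The rule was also run on simulated data, in which the FPKM of the changed genes was moved by more than the rule. The pseudocount brings such changes of low genes nearer to the rule. That run does not bear on changes near the rule, such as those of Myc, or on the spread between cultures. Alternatives changed the pseudocount, filter, transcript, centring and untreated library. Members and lists were chosen with earlier results of these data known. Named were all 8 members and, per list and comparison, up to 4 called genes or, where none was called, up to 2 with the largest change, of which a selection is printed, and the 5 genes nearest in pattern. Python 3.11.15, pandas 2.3.3, numpy 2.4.6, scipy 1.17.1 and matplotlib 3.10.9 were used.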

Additional observations from a re-analysis of the deposited data

How the results depend on the processing

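Of 316 values of members under another pseudocount, filter, transcript, centring or untreated library, 314 kept their side of the size rule. The sign changed in 20 of the 316, none of them a called value, and the reported values concerned were at most 0.29 in size. Of these, 10 came from using the untreated library of the other time, where Mnt with IL-4 at 1 h went from -0.03 to 0.44, and 5 from taking the transcript of highest mean FPKM alone. The 2 that changed their side of the rule came from taking the transcript of highest mean FPKM alone, where Myc with IL-33 at 4 h was 0.86 and Mxi1 was -1.02. The member called there was then Mxi1 and not Myc, so the count stayed at 1. On those transcripts Myc as a percentage of Max was 3.77% with IL-4 at 1 h, 5.82% with IL-4 at 4 h and 5.30% with IL-33 at 4 h. As a percentage of the repressors' sum it was 0.505% untreated, 1.13% with IL-4 and 0.229% with IL-33 at 1 h, and 0.553% untreated, 1.99% with IL-4 and 1.57% with IL-33 at 4 h, so both ratios were then higher with IL-4 than with IL-33 at 4 h. These moves follow from leaving out transcripts. Centring on the median of all genes shifted no comparison of a cytokine with its untreated library by more than 0.03 on the log2 scale. In the difference of IL-33 and IL-4 at 4 h, centring moved Myc from -0.01 to 0.03. No paired analysis was possible because each group has 1 library. With 1 library per group, the spread between cultures is unknown, and about 72 to 345 reads limit the precision of Myc.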
